A study of Mus musculus with 24 samples.

Results

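The genes described here encode the proteins of the mitochondrial ribosome that carry the symbols Mrpl (large subunit) or Mrps (small subunit) followed by a number. Members were the protein-coding genes with such a symbol that lie outside chromosomes 10 and 18 and reached a CPM (counts scaled to a common library size) of at least 1 in at least 3 libraries. Of 78 genes with such a symbol, 75 met the rule, out of 14622 genes tested and 31062 features listed in the count tables. Mrpl42 and Mrpl54 lie on chromosome 10, and Mrpl53 stayed under 1 CPM in every library. The 75 members comprised 48 proteins of the large subunit and 27 of the small subunit, counting Mrps30 and Mrps18a with the large subunit, where structural work has placed them. Mrps36 is counted with the small subunit by its symbol. All 75 were above 1 CPM in all 24 libraries and all passed the low-count filter of the test.

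The study measured poly-A RNA in mouse ovarian cancer cells of the line ID8 p53-/-, which lack the tumour suppressor p53 in every group compared here. One derivative was Ifngr1-KO, a knockout of a receptor gene for interferon-gamma (IFN-gamma), and the other was its control, named sgNTC. Cells grew for 48 hours in 6-well plates that were either regular, where cells attach (adherent), or ultra-low attachment (ULA), where they stay in suspension. For the last 24 hours the wells held recombinant mouse IFN-gamma at 100 ng/ml or an equal volume of PBS, which gave 8 groups of 3 libraries. The 8 groups were sgNTC adherent PBS, sgNTC adherent IFN-gamma, sgNTC ULA PBS, sgNTC ULA IFN-gamma and the same 4 in Ifngr1-KO. The labels call the 3 libraries of a group biological replicates and do not say whether they came from separate days. Each genotype is 1 line, so a difference between the lines cannot be told apart from the effect of the knockout. Dead cells were removed before RNA extraction from the ULA wells only, so culture and that step cannot be told apart.

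Mitochondria keep their own ribosomes, which translate the few mRNAs of the mitochondrial genome into core subunits of the respiratory chain and of the ATP synthase. All proteins of these ribosomes are encoded in the nucleus, made in the cytosol and imported, and they assemble on ribosomal RNA made inside the mitochondrion. Some descend from the ribosome of the bacterial ancestor and have bacterial counterparts, and others exist only in mitochondria. Nuclear respiratory factor 1 (NRF1), the ETS-family factor GABP, YY1, MYC and the oestrogen-related receptor ESRRA are known to act on promoters of nuclear genes for mitochondrial proteins.

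Promoter sequences are shown for 5 members on which the results turn. These were Mrps18b and Mrps27, with the largest falls in ULA culture in sgNTC, Mrps21, with the largest rise, Mrpl12, with the largest difference between the lines in ULA culture, and Mrpl45, the only member called after IFN-gamma. Each is the 250 bases before the annotated start of the gene on the gene's own strand, 5′ to 3′, from RefSeq (build GRCm38.p6). Capitals mark matches to the searched motifs described after the sequences.
Mrps18b: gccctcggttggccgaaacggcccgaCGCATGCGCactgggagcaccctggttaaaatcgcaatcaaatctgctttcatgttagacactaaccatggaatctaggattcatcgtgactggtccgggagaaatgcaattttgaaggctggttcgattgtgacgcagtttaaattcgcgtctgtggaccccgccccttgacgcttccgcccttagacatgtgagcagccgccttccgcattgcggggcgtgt
Mrps27: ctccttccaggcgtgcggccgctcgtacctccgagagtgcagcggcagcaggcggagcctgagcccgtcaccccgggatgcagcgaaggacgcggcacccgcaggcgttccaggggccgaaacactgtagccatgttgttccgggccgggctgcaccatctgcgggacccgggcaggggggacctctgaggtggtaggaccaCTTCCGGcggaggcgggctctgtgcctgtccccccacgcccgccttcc
Mrps21: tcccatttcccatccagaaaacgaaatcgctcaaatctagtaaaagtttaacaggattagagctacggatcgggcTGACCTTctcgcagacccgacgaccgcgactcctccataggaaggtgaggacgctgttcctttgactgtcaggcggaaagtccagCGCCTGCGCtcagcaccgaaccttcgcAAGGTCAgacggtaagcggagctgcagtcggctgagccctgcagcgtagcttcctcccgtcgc
Mrpl12: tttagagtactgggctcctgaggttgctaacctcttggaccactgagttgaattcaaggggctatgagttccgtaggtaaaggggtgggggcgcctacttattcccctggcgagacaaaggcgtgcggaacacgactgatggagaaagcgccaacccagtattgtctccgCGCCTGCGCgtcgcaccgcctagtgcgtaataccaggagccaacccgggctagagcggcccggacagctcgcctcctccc
Mrpl45: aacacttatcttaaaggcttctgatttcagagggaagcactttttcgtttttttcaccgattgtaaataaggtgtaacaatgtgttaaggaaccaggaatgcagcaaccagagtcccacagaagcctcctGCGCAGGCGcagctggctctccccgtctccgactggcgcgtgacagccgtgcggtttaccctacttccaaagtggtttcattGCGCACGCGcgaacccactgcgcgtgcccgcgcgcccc
The windows are chr17:35916441-35916690 (minus strand) for Mrps18b, chr13:99344536-99344785 (plus strand) for Mrps27, chr3:95871515-95871764 (minus strand) for Mrps21, chr11:120484387-120484636 (plus strand) for Mrpl12 and chr11:97315466-97315715 (plus strand) for Mrpl45.

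The motifs were searched on both strands of windows of 300 bases, which add the first 50 bases of the transcript: GCGCANGCG for NRF1, CCGGAAG for ETS factors, AAGATGGC for YY1, CACGTG for the E-box bound by MYC, and TGACCTT for ESRRA. No motif's letters contain another's, and a window counted once per motif. RefSeq gave a window for 67 of the 75 members. ETS letters were in 37.3% of these windows, against 19.0% of the windows of the other tested genes and 9.93% of all windows. YY1 letters were in 16.4% of member windows, against 5.05% and 3.19%. NRF1 letters were in 23.9%, against 14.2% and 7.03%. The E-box was in 7.46% of member windows, against 11.2% and 8.09%, and the ESRRA letters were in 5.97%, against 4.17% and 5.38%. In the printed windows the NRF1 letters begin at -224 in Mrps18b, at -90 in Mrps21, at -80 in Mrpl12 and at -120 and -38 in Mrpl45, counted from the gene's start. The ETS letters begin at -48 in Mrps27 and the ESRRA letters at -175 and -63 in Mrps21. Of the 25 members with a window that were lower in ULA in all 4 culture comparisons, 36.0% held the ETS letters, against 38.1% of the 42 other members. The shares were 28% against 21.4% for the NRF1 letters, 20% against 14.3% for YY1, 4.0% against 9.52% for the E-box and 4.0% against 7.14% for ESRRA, where each share rests on 1 to 9 windows per group. A match is a run of letters and not a measured binding site.

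Between 33494774 and 63154942 reads were counted per library, and a member had from 176 to 4752 counts in a library, with a median of 1190. Ifngr1, which checks the genotype labels, lay between 13.3 and 17.0 CPM in the 12 Ifngr1-KO libraries and between 31.7 and 48.1 CPM in the 12 sgNTC libraries, with no overlap. Keratin 8 (Krt8) lay between 174 and 888 CPM and the mesothelial antigen Msln between 295 and 654 CPM, whereas the epithelial marker Epcam had no count in any library and Cdh1 stayed at or under 1.05 CPM. The epithelial and mesothelial list moved with culture: it summed to between 2033 and 2193 CPM in sgNTC adherent PBS, 2793 and 2848 in sgNTC ULA PBS, 1727 and 2027 in Ifngr1-KO adherent PBS and 4110 and 4267 in Ifngr1-KO ULA PBS. With PBS 5 of its 9 tested genes were called higher in ULA culture in each line, and 2 were called lower in sgNTC and 0 in Ifngr1-KO. Keratin 19 (Krt19) led it, with a mean of 596 CPM in adherent and 2060 CPM in ULA culture in Ifngr1-KO. Means of Msln were 645 and 316 CPM in sgNTC, and those of Muc16 were 16.6 CPM in sgNTC and 0.0738 CPM in Ifngr1-KO, both adherent. The defining leukocyte markers were at or near 0, with Cd3e at 0 and Ptprc at or under 0.155 CPM, and 6 of the 8 genes of that list were too low to test. Its summed level was led by Cd68 and moved with both culture and line, from 3.07 to 3.52 CPM in sgNTC adherent PBS, 6.77 to 7.26 in sgNTC ULA PBS, 5.62 to 7.65 in Ifngr1-KO adherent PBS and 16.8 to 21.3 in Ifngr1-KO ULA PBS. The fibroblast list, in which Lum was at 0, summed to between 91.9 and 105 CPM in sgNTC adherent PBS, 117 and 122 in sgNTC ULA PBS, 33.2 and 41.2 in Ifngr1-KO adherent PBS and 98.6 and 102 in Ifngr1-KO ULA PBS. Its 2 tested genes went opposite ways in ULA culture in both lines: mean Dcn went from 45.9 to 100 CPM in sgNTC and from 17.2 to 96.3 CPM in Ifngr1-KO, and mean Col1a1 from 51.1 to 22.4 CPM and from 20.3 to 4.82 CPM. The endothelial list, in which 3 of 5 genes were too low to test, had a mean sum of 0.762 CPM in adherent and 3.21 CPM in ULA culture in sgNTC, and of 0.669 and 1.77 CPM in Ifngr1-KO. The part of these markers in the results was not tested. One library stood apart in the members: in replicate 3 of Ifngr1-KO adherent PBS, 70 of 75 members lay above their group's mean. In replicate 2 of Ifngr1-KO ULA IFN-gamma only 14 of 75 did. Other libraries deviated too: 11 did in replicate 2 of Ifngr1-KO adherent PBS, 16 in replicate 2 of sgNTC ULA PBS and 63 in replicate 2 of sgNTC adherent PBS. Replicate 3 of Ifngr1-KO adherent PBS and replicate 2 of Ifngr1-KO ULA IFN-gamma are below called the libraries that stood apart. For the main comparisons, summed levels, counts of calls and overlaps of members that use either of them are also given without it. These alternatives were chosen after seeing the data.

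Levels differed widely among members when set per length. On the scale of mean CPM per kilobase of the gene's principal transcript, averaged over the 8 groups, the median was 20.1 over all members, 21.2 in the large subunit and 15.5 in the small subunit. Mrpl33, a small protein of the large subunit, was highest at 104 CPM per kilobase, followed by Mrps23 at 45.7, Mrpl38 at 43.8 and Mrpl24 at 42.8. The lowest were Mrps16 at 3.70, Mrps26 at 3.53, Mrpl47 at 3.22 and Mrps25 at 2.83. The place of Mrpl33 depended on the length used, since it ranked 57 of 75 when its counts were divided by the full length of all its annotated exons. The 2 scales ranked the members with a Spearman correlation of 0.68 (n = 75 genes in the same libraries). Mrps25 shares 69.8% of its exon bases with the overlapping gene Nr2c2 and Mrpl47 shares 24.2% with neighbours, and reads in shared bases were not assigned to either gene, so the low levels of both are uncertain. In all, 26 members share exon bases with another gene, 6 of them over more than 20%.

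The summed level of the family was lower in ULA than in adherent culture in both lines. In sgNTC with PBS the 75 members summed to 2230, 2426 and 2244 CPM in the 3 adherent libraries (mean 2300 ± 109, SD, n = 3) and to 1986, 1896 and 2053 CPM in the 3 ULA libraries (1978 ± 78.6). Every ULA library was below every adherent one, and the mean was lower by 14%. In Ifngr1-KO with PBS the sum was 2740 ± 226 CPM in adherent and 2275 ± 34.1 CPM in ULA culture (SD, n = 3 each), lower by 17.0%, and by 12.8% without replicate 3 of the adherent group. With IFN-gamma the ULA mean was lower by 16.7% in sgNTC and by 13.6% in Ifngr1-KO, and in Ifngr1-KO by 11.1% without replicate 2 of the ULA group. These levels are relative to library totals scaled by TMM factors, and the sgNTC calls below depended on that scaling. In bulk RNA fewer cells with a transcript and less of it per cell cannot be told apart.

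**Figure D1:**
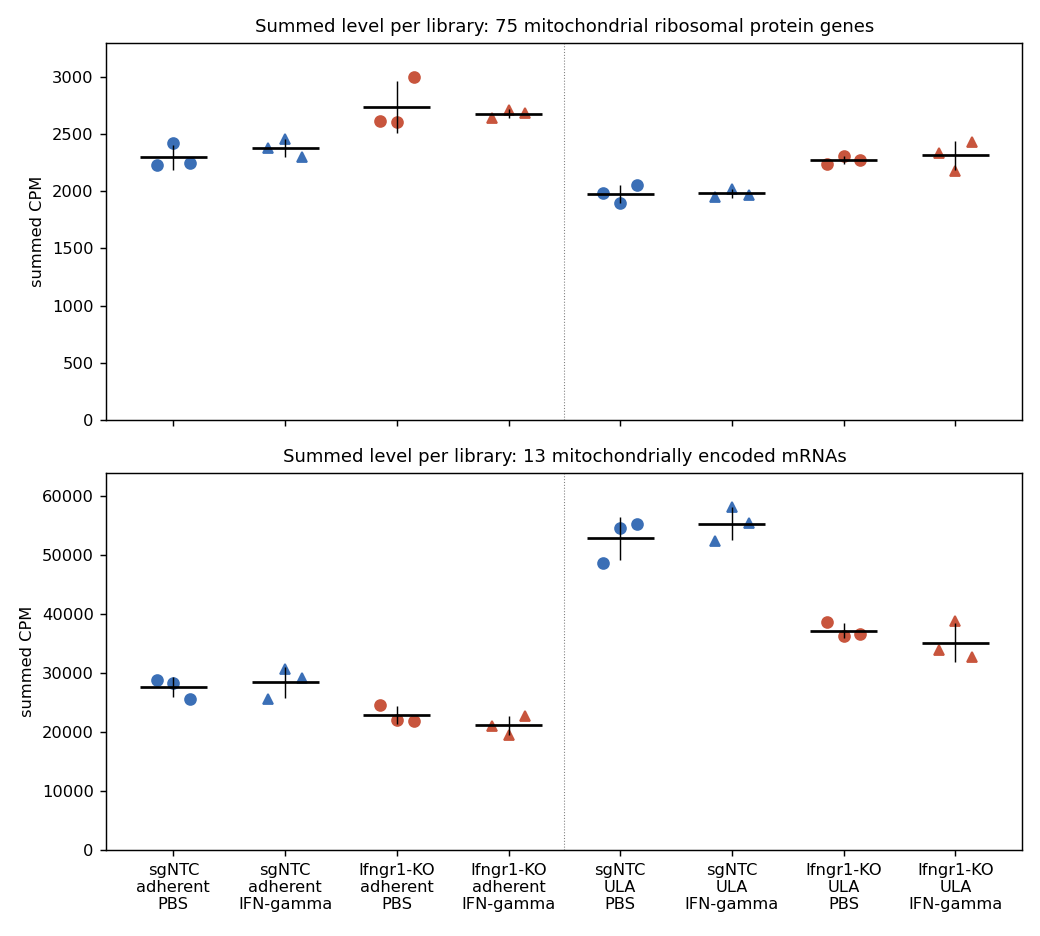
Summed CPM of the 75 members (top) and of the mitochondrially encoded mRNAs (bottom) in each of the 24 libraries, by group (points: libraries, bars: mean and SD, n = 3). In each line the ULA libraries are lower than adherent ones for the members, with means of 1978 against 2300 in sgNTC PBS, and higher for the mitochondrially encoded mRNAs, with means of 52810 against 27590.

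Gene by gene, 37 members fell and 5 rose in ULA against adherent culture in sgNTC with PBS, at an adjusted p under 0.05 in edgeR's quasi-likelihood test (Benjamini-Hochberg, over all genes). That is 56.0% of members called, against 64.6% of all genes tested. The members called lower were 49.3%, against 32.1% of all genes, and those called higher 6.67%, against 32.5%. The median log2 fold change was -0.21 over members and 0.03 over all genes. In Ifngr1-KO with PBS 41 members fell and 7 rose (64.0% called, against 60.7% of all genes, with 31.1% lower and 29.6% higher), and the median was -0.25 over members and -0.004 over all genes, with -0.15 over members and 0.02 over all genes without replicate 3 of the adherent group. Under IFN-gamma 40 fell and 5 rose in sgNTC (60.0% called, against 64.6%, with 32.0% lower and 32.6% higher), and 39 fell and 9 rose in Ifngr1-KO (64.0%, against 60.2%, with 30.9% lower and 29.3% higher). Without replicate 2 of Ifngr1-KO ULA IFN-gamma the latter counts were 32 and 10, and leaving out any 1 library gave 30 to 38 lower there. The members were thus called about as often as other genes and more often downwards. They also spread less, with an SD of log2 fold changes of 0.396 in sgNTC PBS against 1.198 over all genes.

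In sgNTC with PBS all 3 ULA libraries lay below all 3 adherent libraries for 37 members (34.6% of all genes) and above them for 8 (36.0% of all genes). The sgNTC split depended on the scaling: with library totals in place of TMM factors 26 members were called lower and 9 higher, and the median of all genes moved to 0.13 against -0.11 for the members. The members' median minus that of all genes was -0.24 with TMM factors. In Ifngr1-KO 40 members lay below (32.4% of all genes) and 7 above (30.5%), and the split of calls was 32 lower and 11 higher without replicate 3 of the adherent group.

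**Figure D2:**
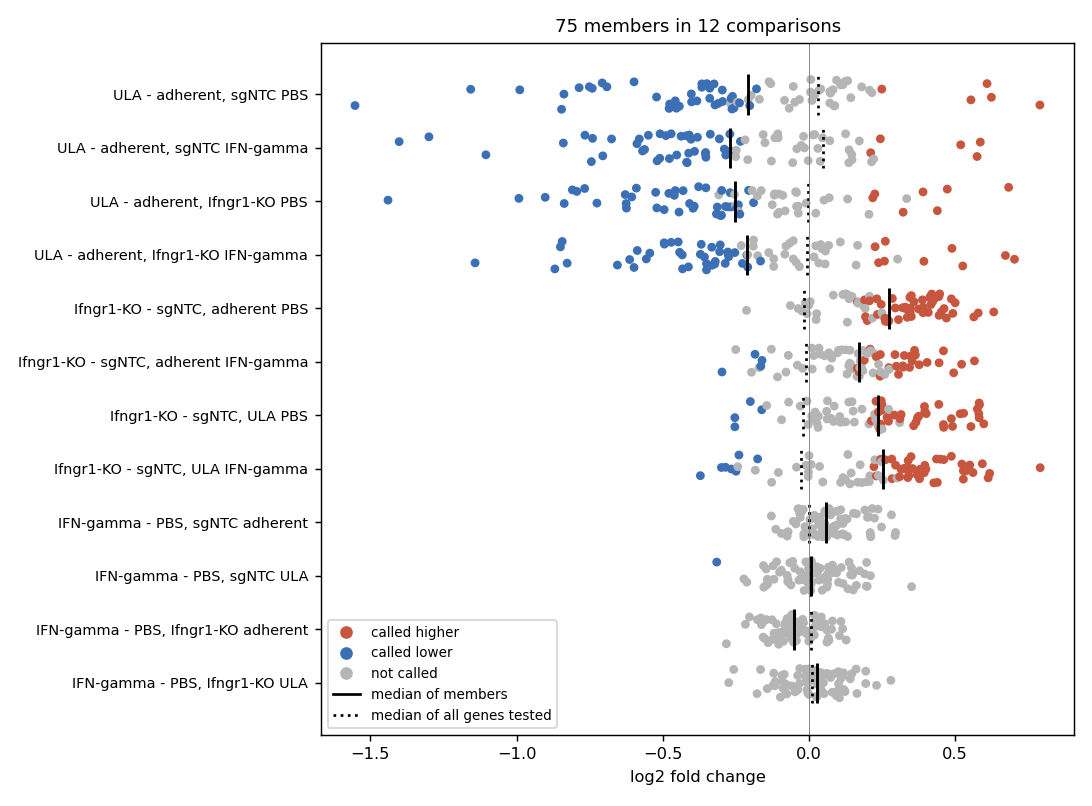
Log2 fold changes of the 75 members (points, coloured by call) in the 12 comparisons of 2 groups, with the median of members (solid bar) and of all 14622 genes tested (dotted bar). Members lie mostly below 0 for ULA against adherent culture, mostly above 0 for Ifngr1-KO against sgNTC, and around 0 for IFN-gamma against PBS, where 1 point is called.

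The culture response of single members was alike in both lines. Between sgNTC and Ifngr1-KO with PBS, which have no library in common, the log2 fold changes of the 75 members had a Pearson correlation of 0.90, against 0.70 over all genes. Of the members that fell, 34 did so in both lines, which is 91.9% of the sgNTC list and 82.9% of the Ifngr1-KO list, and no member was called in opposite directions. Of all genes 32.1% fell in sgNTC and 31.1% in Ifngr1-KO, and the share that fell in both is not given. Without replicate 3 of Ifngr1-KO adherent PBS 29 fell in both lines, or 78.4% and 90.6%. In all 4 culture comparisons 30 members were called lower, or 40.0%, against 21.9% of all genes, and 27 without both libraries that stood apart. Mrpl34, Mrpl41 and Mrps21 were called higher in all 4, or 4.0% of members against 19.5% of all genes. A further 15 members were called in none, or 20% against 17.2% of all genes, among them Mrps23, Mrpl33, Mrps12 and Mrps18c.

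**Figure D3:**
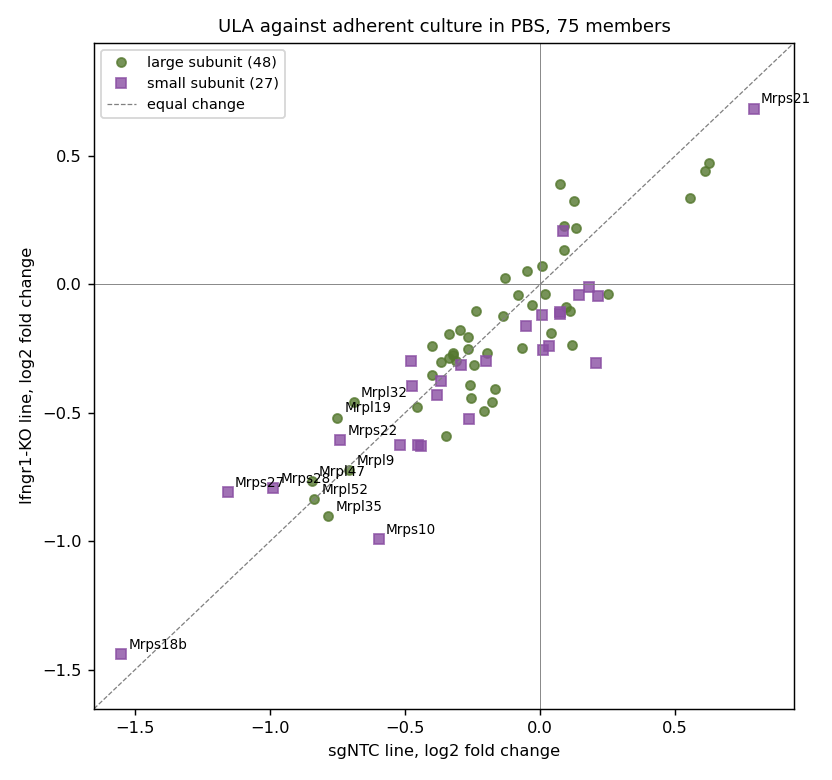
Log2 fold change of each member for ULA against adherent culture with PBS in sgNTC (x axis) and in Ifngr1-KO (y axis). The points run along the diagonal, from Mrps18b at -1.55 and -1.44 to Mrps21 at 0.79 and 0.68.

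Mrps18b fell most. It is 1 of 3 mammalian relatives of the bacterial protein S18 and sits in the small subunit. Its level in sgNTC with PBS was 27.5, 29.5 and 23.6 CPM in adherent culture and 8.57, 9.39 and 9.57 CPM in ULA culture. The groups lay far apart, and the log2 fold change was -1.55 (SE 0.09, edgeR's adjusted p = 1.84e-16). In Ifngr1-KO it was 36.8, 31.0 and 33.7 CPM in adherent and 12, 12.7 and 12.8 CPM in ULA culture, a log2 fold change of -1.44. Under IFN-gamma the log2 fold changes were -1.40 in sgNTC and -1.14 in Ifngr1-KO. The gene spans chr17:35910379-35916389 on the minus strand and shares 30.5% of its exon bases with the predicted gene Gm16279, and reads in those bases were not counted for it.

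Mrps27, a pentatricopeptide-repeat protein of the small subunit that has no bacterial counterpart and no exon base in common with another gene, came next in sgNTC. It was at 32.8, 36.4 and 28.6 CPM in adherent and 14.9, 14.7 and 14.2 CPM in ULA culture in sgNTC with PBS. No value overlapped, and the log2 fold change was -1.16 (SE 0.09, adjusted p = 3.27e-13). In Ifngr1-KO it was 38, 37.7 and 39.5 CPM in adherent and 21.8, 20.5 and 23.5 CPM in ULA culture, a log2 fold change of -0.81.

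Mrps28 fell from 10.5, 10.5 and 9.85 CPM to 5.57, 4.83 and 5.12 CPM in sgNTC, a log2 fold change of -0.99 (edgeR's adjusted p = 8.23e-08), and by 0.79 on the log2 scale in Ifngr1-KO. Mrpl47, homologous to bacterial L29, fell by 0.85 on the log2 scale in sgNTC and by 0.77 in Ifngr1-KO. Mrpl52, a protein found only in mitochondrial ribosomes, fell by 0.84 in both lines, and Mrpl35, homologous to bacterial L35, fell by 0.79 in sgNTC and by 0.90 in Ifngr1-KO. Mrps10, a homologue of bacterial S10, was lowered more in Ifngr1-KO: there it went from 42.7, 46.7 and 53.5 CPM in adherent to 23.4, 24.3 and 24.1 CPM in ULA culture, a log2 fold change of -0.99, against -0.60 in sgNTC.

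Few members went the other way. Mrps21, a homologue of bacterial S21 in the small subunit, rose from 11.8, 10.9 and 10.9 CPM to 18.2, 20.1 and 19.99 CPM in sgNTC with PBS. All ULA values were above all adherent ones, and the log2 fold change was 0.79 (SE 0.12, edgeR's adjusted p = 6.49e-07). In Ifngr1-KO it rose from 12.9, 12.8 and 17.0 CPM to 23.1, 23.0 and 22.4 CPM, a log2 fold change of 0.68 (adjusted p = 7.04e-06). Mrpl41, a mitochondria-specific protein of the large subunit, rose by 0.63 in sgNTC and 0.47 in Ifngr1-KO on the log2 scale. Mrpl34, homologous to bacterial L34, rose by 0.61 and 0.44.

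Mrpl14 (homologous to bacterial L14) rose by 0.56 on the log2 scale in sgNTC, and in Ifngr1-KO its log2 fold change of 0.34 missed the threshold (adjusted p = 0.0513). Mrpl55 was called higher in sgNTC at 0.25, a call that ended when any 1 of 3 libraries was left out. In Ifngr1-KO Mrpl18, homologous to bacterial L18, rose by 0.39 and Mrpl51 by 0.32. Nearest to 0 were Mrpl43 in sgNTC, at 49.8 ± 3.15 CPM in adherent and 49.99 ± 4.51 CPM in ULA culture (SD, n = 3 each), and Mrps25 in Ifngr1-KO, at 19.2 ± 4.78 and 19.1 ± 0.98 CPM.

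**Figure D4:**
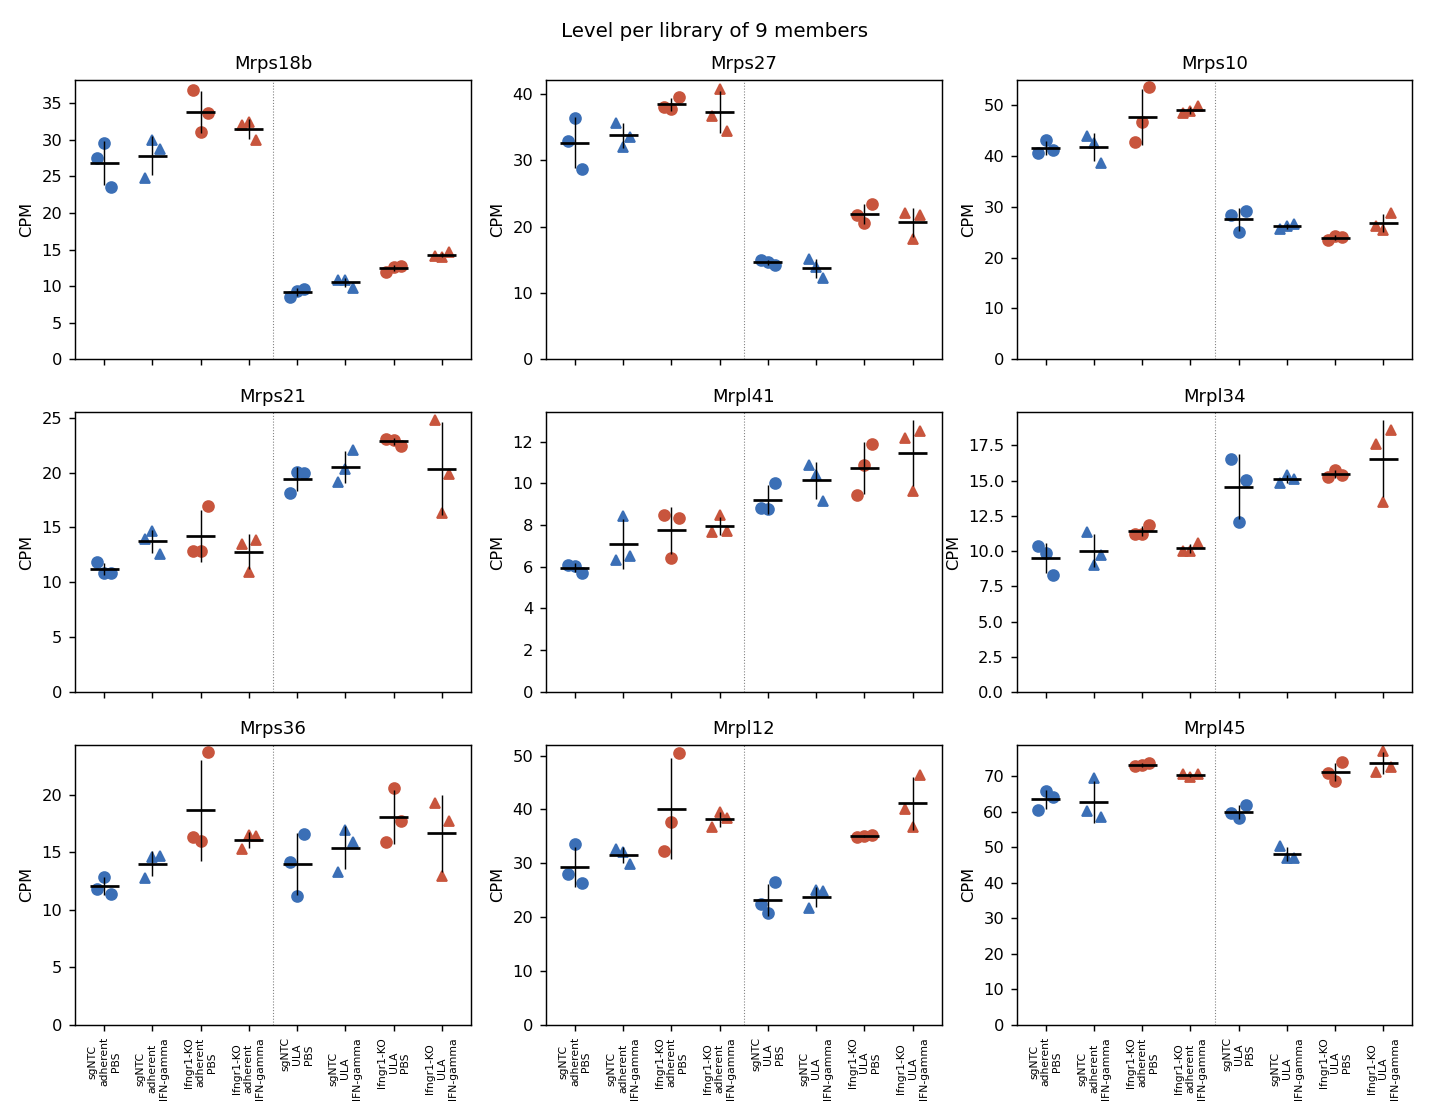
CPM of 9 members in each library, by group (points: libraries, bars: mean and SD, n = 3, vertical axes from 0). Mrps18b, Mrps27 and Mrps10 are lower in every ULA library than in every adherent library of both lines, and Mrpl45 is lowest in sgNTC ULA with IFN-gamma, between 47.0 and 50.4 CPM.

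By subunit, the small subunit's summed level was lower by 18.1% in ULA culture in sgNTC and by 23.8% in Ifngr1-KO, and the large subunit's by 12% and 13.7%, all with PBS. Without replicate 3 of Ifngr1-KO adherent PBS the Ifngr1-KO falls were 19.8% and 9.58%. In sgNTC 15 of 27 small-subunit members fell and 1 rose, and 22 of 48 large-subunit members fell and 4 rose, where 32.1% of all genes fell and 32.5% rose. In Ifngr1-KO the counts were 15 and 1 in the small subunit and 26 and 6 in the large subunit, where 31.1% of all genes fell and 29.6% rose. Without that library they were 12 and 2 in the small subunit and 20 and 9 in the large subunit. Within the small subunit the 17 members with a bacterial counterpart had a median log2 fold change of -0.37 in sgNTC and -0.38 in Ifngr1-KO, with 12 called lower in each. The 10 mitochondria-specific members, which include Mrps36, had medians of 0.05 and -0.12, with 3 called lower in each. Without that library the Ifngr1-KO medians were -0.33 and -0.02. In the large subunit both kinds lay close together in sgNTC, with medians of -0.20 and -0.21. These are descriptions of classes of unequal size, and no test between them was made.

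Transcript length went weakly with the culture response among members. The Spearman correlation of length with log2 fold change was -0.24 in sgNTC and -0.26 in Ifngr1-KO over the 75 genes, against -0.03 and 0.02 over all genes with a length. The 13 members under 800 nucleotides had medians of -0.05 and -0.04, and the 62 longer ones of -0.26 and -0.28. All points share the same libraries.

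**Figure D5:**
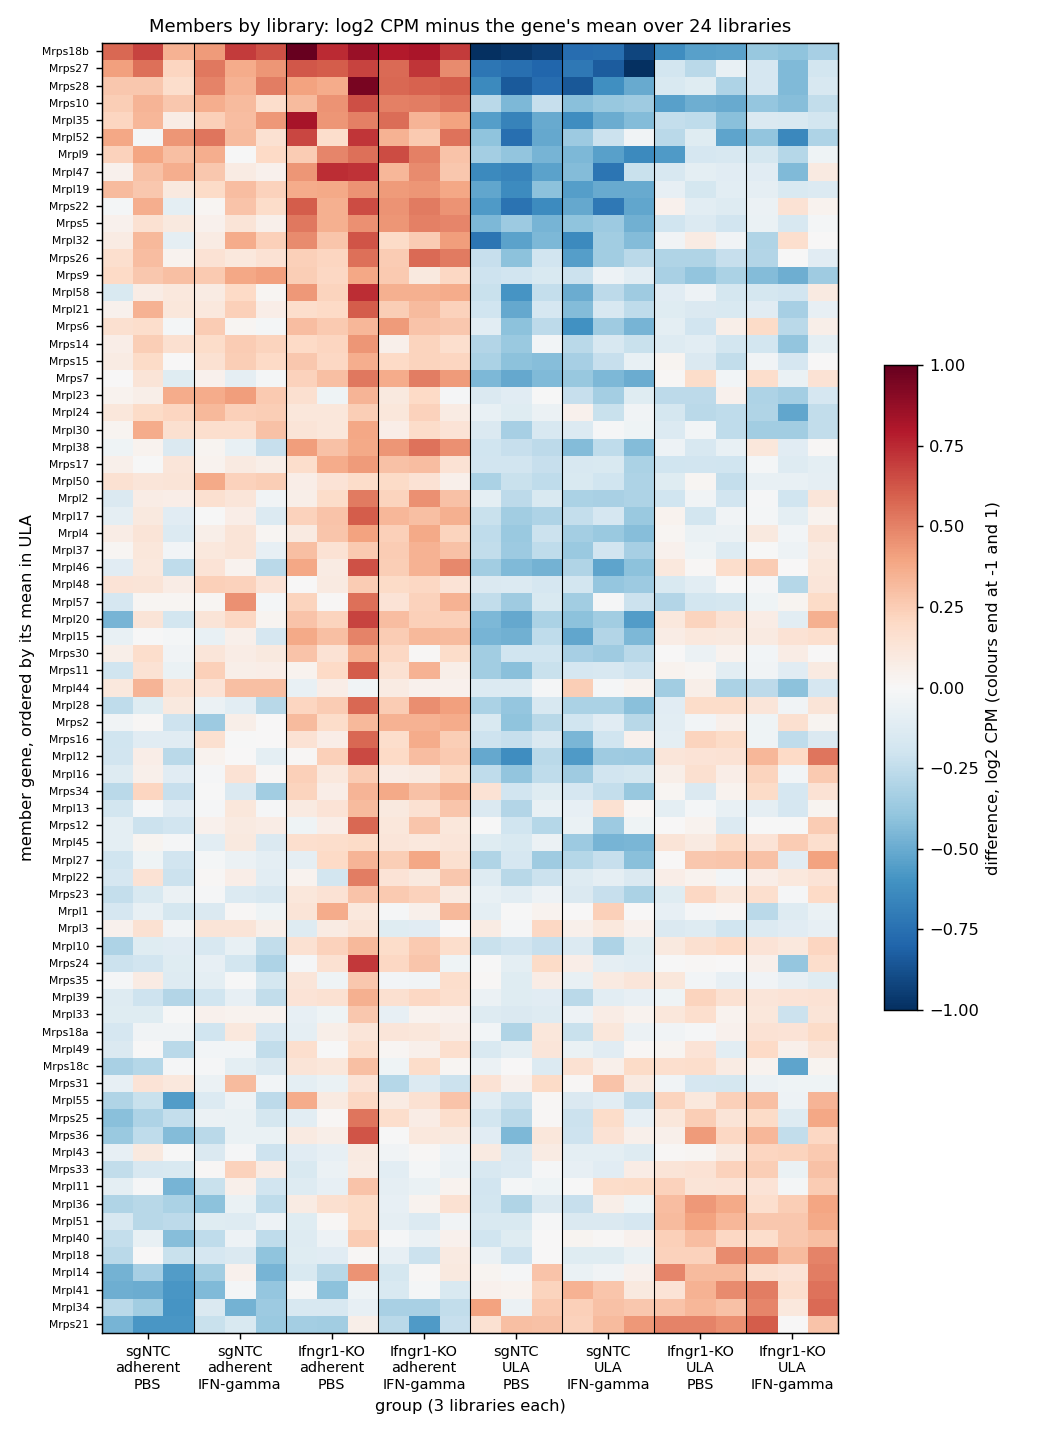
Log2 CPM of each member (rows) in each library (columns) minus the gene's mean over the 24 libraries, with rows ordered by the mean in ULA culture. The upper rows, led by Mrps18b, Mrps27 and Mrps28, are high in adherent and low in ULA libraries, the lowest rows, ending in Mrpl34 and Mrps21, show the opposite, and replicate 3 of Ifngr1-KO adherent PBS stands out with 70 of 75 members above its group's mean.

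The family was higher in Ifngr1-KO than in sgNTC in every condition. The summed level was higher by 19.1% in adherent culture with PBS, by 12.6% in adherent culture with IFN-gamma, by 15% in ULA with PBS and by 16.8% in ULA with IFN-gamma. The first of these was 13.5% without replicate 3 of Ifngr1-KO adherent PBS, and the last was 20.2% without replicate 2 of Ifngr1-KO ULA IFN-gamma. In adherent culture with PBS the 3 Ifngr1-KO libraries stood at 2613, 2607 and 3001 CPM and the 3 sgNTC libraries at 2230, 2426 and 2244 CPM. The groups did not overlap, and the highest value was that of the library that stood apart.

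In that comparison 50 members were called higher in Ifngr1-KO and 0 lower (edgeR, Benjamini-Hochberg). That is 66.7%, against 43.9% of all genes called, 20.1% higher and 23.9% lower. All 3 Ifngr1-KO libraries lay above all 3 sgNTC libraries for 40 members (22.5% of all genes) and below them for 1 (27.1%). Without replicate 3 of Ifngr1-KO adherent PBS 30 members were called, all higher. The median log2 fold change was 0.27 over members and -0.01 over all genes, and 0.22 over members without that library. At an unadjusted p under 0.05 52 members were higher and 1 was lower, against 7341 of all 14622 genes in either direction. DESeq2 also called 50 members.

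In adherent culture with IFN-gamma 26 members were called higher and 4 lower (40.0%, against 43.3% of all genes, with 20.2% higher and 23.1% lower), a split of 34 and 0 when library totals were the scale. Counts on that scale are not given for the other line comparisons. It moved the line differences in ULA culture downwards relative to those in adherent culture, as the interactions below show. In ULA culture with PBS 37 were higher and 4 lower (54.7%, against 50.1%, with 24.5% higher and 25.6% lower), and with IFN-gamma 39 were higher and 7 lower (61.3%, against 54.8%, with 27.6% higher and 27.2% lower). The medians over members were 0.17, 0.24 and 0.25. With PBS all 3 ULA libraries of Ifngr1-KO lay above all 3 of sgNTC for 44 members (29.0% of all genes) and below them for 5 (30.8%). The lower calls in adherent IFN-gamma and in ULA PBS were 0 to 2 whenever 1 library was left out, and those in ULA IFN-gamma 2 to 6. Without replicate 2 of Ifngr1-KO ULA IFN-gamma 50 members were called higher and 2 lower in that comparison, with a median of 0.36, and without replicate 2 of sgNTC ULA IFN-gamma 44 and 3. Mean levels were highest in Ifngr1-KO adherent PBS for 34 members and in Ifngr1-KO adherent IFN-gamma for 17, and lowest in sgNTC ULA PBS for 25, sgNTC ULA IFN-gamma for 20 and sgNTC adherent PBS for 17. The first count includes replicate 3 of Ifngr1-KO adherent PBS. Without that library the group's mean summed level was 2610 CPM, against 2679 CPM in Ifngr1-KO adherent IFN-gamma. These counts are given neither over all genes nor without that library. The 17 members called higher in all 4 line comparisons (22.7%, against 7.78% of all genes) included Mrpl10, Mrpl28, Mrpl45, Mrps2, Mrps7 and Mrps22, and none was called lower in all 4 (10.9% of all genes). Without both libraries that stood apart 13 were higher in all 4.

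With PBS the Pearson correlation of the members' line differences in adherent and in ULA culture was 0.59, against 0.65 over all genes, with no shared library. Of the members called higher, 32 were so in both cultures, or 64.0% of the adherent list and 86.5% of the ULA list. Of all genes 20.1% were higher in adherent and 24.5% in ULA culture, and the share higher in both is not given. Mrps10 was called in opposite directions, higher by 0.19 on the log2 scale in adherent culture (edgeR's adjusted p = 0.0365) and lower in ULA culture at -0.20 (adjusted p = 0.0316). Without replicate 3 of Ifngr1-KO adherent PBS 22 members were higher in both, or 73.3% and 59.5%, and none was called in opposite directions.

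Among single members in adherent culture with PBS, Mrps36 differed most between the lines. It is counted with the small subunit by its symbol, and it is known as a subunit that ties together the 2-oxoglutarate dehydrogenase complex. Whether it belongs to the ribosome was not tested. It has 3 named pseudogenes, so its reads are less certain. Its level was 16.3, 16 and 23.7 CPM in Ifngr1-KO and 11.8, 12.9 and 11.3 CPM in sgNTC, without overlap. The log2 fold change was 0.63 (SE 0.15, adjusted p = 0.00147), and 0.44 without the library that stood apart.

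Mrpl55, a protein of the large subunit, was at 25.4, 20.9 and 22.7 CPM in Ifngr1-KO and 16, 16.8 and 13.3 CPM in sgNTC, a log2 fold change of 0.58 (adjusted p = 2.26e-05). Mrpl20, homologous to bacterial L20, was higher by 0.57 on the log2 scale. Mrps25 and Mrpl14 were called higher at 0.50 and 0.49, and both calls ended without replicate 3 of Ifngr1-KO adherent PBS, at 0.30 and 0.26.

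In ULA culture with PBS Mrpl12 led. It is the counterpart of bacterial L7/L12, the stalk protein that binds translation factors, and it also binds the mitochondrial RNA polymerase. Its level was 34.8, 35.0 and 35.3 CPM in Ifngr1-KO and 22.4, 20.7 and 26.4 CPM in sgNTC. The log2 fold change was 0.60 (SE 0.12, adjusted p = 0.000168), with no overlap between the lines.

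Mrps22, Mrpl36, Mrps27 and Mrpl20 were each higher by 0.58 on the log2 scale in that comparison. Mrps22, mutated in some inherited mitochondrial diseases, was at 31.4, 28.4 and 27.9 CPM in Ifngr1-KO and at 20.6, 18.2 and 19.7 CPM in sgNTC. The 4 members called lower were Mrpl3 at -0.25, Mrps31 at -0.25, Mrps10 at -0.20 and Mrps9 at -0.16. Mrpl3, homologous to bacterial L3, stood at 61.3, 61.8 and 59.0 CPM against 71.9, 67.2 and 78.1 CPM, and its call ended without replicate 3 of sgNTC ULA PBS. The calls of Mrps31 and Mrps9 ended when any 1 of the 6 libraries was left out, and that of Mrps10 when any 1 of 5 was.

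Whether culture acted differently in the lines was tested as the ULA-against-adherent difference in Ifngr1-KO minus that in sgNTC. With PBS 5 members were called, 1 higher and 4 lower (27.8% of all genes, 16.6% higher and 11.2% lower): Mrps10 at -0.39, Mrpl1 at -0.35, Mrpl38 at -0.28, Mrps17 at -0.26 and Mrps27 at 0.35 on the log2 scale. Mrps10 kept its call under every alternative run (adjusted p = 0.00582). Mrpl1, homologous to bacterial L1, was at 32.9 ± 1.32 CPM in adherent and 35.7 ± 1.68 CPM in ULA culture in sgNTC and at 41.8 ± 4.47 and 35.5 ± 1.18 CPM in Ifngr1-KO (SD, n = 3 each). The calls of Mrpl1, Mrpl38, Mrps17 and Mrps27 each ended in at least 6 of the 12 fits that left out 1 library.

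With IFN-gamma 11 members were called, 9 higher and 2 lower (32.3% of all genes, 19.0% higher and 13.3% lower). Relative to library totals the split was 2 higher and 9 lower, while the median of all genes moved from 0.00 to -0.12, so no direction is given for the family. Mrpl45, which tethers the mitochondrial ribosome to the inner membrane, differed by 0.45 (SE 0.09, adjusted p = 8.16e-05). It was at 62.7 ± 5.90 CPM in adherent and 48.1 ± 1.94 CPM in ULA culture in sgNTC with IFN-gamma, and at 70.3 ± 0.44 and 73.7 ± 3.16 CPM in Ifngr1-KO (SD, n = 3 each). Mrpl51 differed by 0.45 (adjusted p = 0.00123), from 26.4 ± 0.80 to 25.4 ± 0.26 CPM in sgNTC and from 26.6 ± 0.89 to 34.9 ± 1.57 CPM in Ifngr1-KO. Both kept their calls under every alternative run.

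After IFN-gamma 1 member was called in 1 of 4 comparisons. In sgNTC adherent culture 0 members were called by edgeR's quasi-likelihood test or by DESeq2 (0.315% of all genes), and 4 had an unadjusted p under 0.05, all higher. In sgNTC ULA culture 1 was called, lower (2.05% of all genes, 0.739% lower), and 7 had an unadjusted p under 0.05. In Ifngr1-KO adherent culture 0 members were called by either tool (0.00684% of all genes), with 1 at an unadjusted p under 0.05. In Ifngr1-KO ULA culture 0 were called by either tool (0.0% of all genes), with 6 at an unadjusted p under 0.05, and DESeq2 gave 53 members no adjusted p there. Of all 14622 genes, 1071, 1924, 1215 and 1103 had an unadjusted p under 0.05 in the same order of comparisons.

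The 95% intervals of the members' log2 fold changes lay between -0.36 and 0.55 in sgNTC adherent and between -0.50 and 0.68 in sgNTC ULA culture. They lay between -0.54 and 0.37 in Ifngr1-KO adherent and between -0.53 and 0.54 in Ifngr1-KO ULA culture. All 75 intervals were inside a change of 1.5-fold in either direction, except for 1 of 75 in sgNTC ULA culture. The summed level moved by 3.48%, 0.202%, -2.23% and 1.76% in the same order of comparisons. Without the library that stood apart the last values were 2.62% in Ifngr1-KO adherent culture, which turns its sign, and 4.67% in Ifngr1-KO ULA culture.

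The member called was Mrpl45. In sgNTC ULA culture it was at 59.5, 58.2 and 62.1 CPM with PBS and at 50.4, 47.0 and 47.1 CPM with IFN-gamma. The groups did not overlap, and the log2 fold change was -0.32 (SE 0.06, adjusted p = 0.0014). In sgNTC adherent culture it was at 60.5, 65.9 and 64.1 CPM with PBS and 60.3, 69.5 and 58.4 CPM with IFN-gamma, a log2 fold change of -0.02, with overlapping values. The difference between the cultures was -0.30 and missed the threshold (adjusted p = 0.726). In that test 0 members were called (0.0479% of all genes) by edgeR or DESeq2, with 3 at an unadjusted p under 0.05, against 781 of all 14622 genes. In Ifngr1-KO ULA culture Mrpl45 changed by 0.05 (adjusted p = 0.901).

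Of 5 mitochondrial ribosomal proteins under other symbols, 2 fell in ULA culture in sgNTC with PBS and 3 in Ifngr1-KO. Of all genes 32.1% fell and 32.5% rose in sgNTC, and 31.1% and 29.6% in Ifngr1-KO. These shares apply to the lists below as well. Gadd45gip1, also known as a large-subunit protein, had log2 fold changes for ULA against adherent culture of -0.49 in sgNTC and -0.58 in Ifngr1-KO, and Chchd1, a small-subunit protein, of -0.43 and -0.53, all 4 called lower. Dap3, a GTP-binding small-subunit protein, was at -0.11 and -0.12 and Aurkaip1 at -0.09 and -0.13, none called. Ptcd3 was at 0.10 (not called) and at -0.16 in Ifngr1-KO (called). Dap3 was higher in Ifngr1-KO than in sgNTC by 0.26 in both adherent and ULA culture with PBS.

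Of 26 factors that assemble the mitochondrial ribosome, 16 fell and 5 rose in ULA culture in sgNTC with PBS (median -0.37) and 17 fell and 1 rose in Ifngr1-KO (median -0.46). Noa1, a GTPase needed for the small subunit, fell by 0.93 and 0.82 on the log2 scale, and Rcc1l, which acts in assembly of the large subunit, fell by 1.08 in sgNTC. Between the lines 7 of the 26 were higher and 1 lower in Ifngr1-KO in adherent culture, and 5 were higher and 4 lower in ULA culture. For this list and those below, 20.1% of all genes were higher and 23.9% lower in adherent culture with PBS. In ULA culture with PBS the shares were 24.5% and 25.6%. Of 14 tested translation factors, 5 fell and 2 rose in ULA culture in sgNTC (median -0.04) and 6 fell and 2 rose in Ifngr1-KO (median -0.19), beside 32.1% and 31.1% of all genes called lower. The RNA-stabilising Lrpprc fell by 0.75 and 0.58, and Gfm2, which acts in ribosome recycling, rose by 0.38 and 0.53. Between the lines 6 of the 14 were higher and 1 lower in Ifngr1-KO in adherent culture (median 0.17), and 6 were higher and 3 lower in ULA culture (median 0.07). The elongation factors Gfm1 and Tufm were higher by 0.51 and 0.45 in adherent and by 0.72 and 0.52 in ULA culture, and Tsfm, the exchange factor of Tufm, was lower, at -0.53 and -0.55.

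Of 20 genes for mitochondrial tRNA charging, 10 fell and 6 rose in ULA culture in sgNTC and 9 fell and 4 rose in Ifngr1-KO, with medians of -0.10 and -0.17. The tRNA synthetase Wars2 was at -1.06 and -1.10, and Gatb, a subunit of the amidotransferase that completes glutamine-tRNA, at 0.47 in both lines, all called. The summed level of the list went the other way from its median, from 799 ± 77.6 to 980 ± 102 CPM in sgNTC and from 651 ± 48.8 to 736 ± 99.3 CPM in Ifngr1-KO (SD, n = 3 each), with overlapping libraries in both lines. In sgNTC Lars2 was a large part of that sum, with means of 357 CPM in adherent and 571 CPM in ULA culture. Of 15 regulators of mitochondrial transcription and biogenesis, 9 fell and 2 rose in sgNTC (median -0.29) and 8 fell and 3 rose in Ifngr1-KO (median -0.30). Pprc1, a coactivator of NRF1, fell by 1.72 and 1.46, Myc fell by 2.04 and 1.48, and Tfam, which packages mitochondrial DNA, fell by 0.74 and 0.79. Between the lines 2 of the 15 were higher and 5 lower in Ifngr1-KO in adherent culture (20.1% and 23.9% of all genes). In ULA culture 5 were higher and 4 lower (24.5% and 25.6% of all genes).

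The 13 mRNAs of the mitochondrial genome, which these ribosomes translate, moved the opposite way in both contrasts. In ULA culture with PBS 13 of 13 rose in sgNTC (median 1.29) and 12 of 13 in Ifngr1-KO (median 1.08). Their summed level lay between 25600 and 28850 CPM in adherent and between 48630 and 55170 CPM in ULA sgNTC libraries, a ratio of 1.91. It lay between 21860 and 24570 CPM in adherent and between 36260 and 38580 CPM in ULA Ifngr1-KO libraries, a ratio of 1.63. Between the lines 11 of 13 were lower in Ifngr1-KO in adherent culture (median -0.70) and 13 of 13 in ULA culture (median -1.01). Their summed level was lower by less than the medians, by 17.2% in adherent and 29.6% in ULA culture.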

How the data were processed

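The deposited files hold raw read counts per gene for 24 libraries, made by the authors with featureCounts 2.1.1 on paired reads without strand, per the file headers. Both mates were counted and reads in exons shared by genes were not assigned, per the file headers. Trimming with Trimmomatic, alignment with HISAT2 and the build GRCm38/mm10 are named in the submitters' processing notes. Rows of features without any count stayed out of the test. Groups came from the labels. All 8 groups were fitted together with edgeR 4.0.16 (R 4.3.3) with TMM factors from 0.958 to 1.05 and its filter at a count minimum of 10, which kept 14622 genes. The residual degrees of freedom were 16 and the common biological coefficient of variation was 0.0771. CPM values of members and the summed levels use the TMM-scaled totals. Values of single marker genes are on another scale than the sums of their lists, so they do not add up to those sums. Fold changes were tested by the quasi-likelihood test, with Benjamini-Hochberg adjustment over all genes and a threshold of 0.05. The fit was tested on simulated data.

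The members, gene lists and comparisons were chosen with earlier results of these data known. Members were named by a rule: up to 5 called members with the largest change per direction in each PBS culture or line comparison and each interaction, every called member for IFN-gamma, the 4 highest and 4 lowest per length, and those nearest to no change. Others are named as examples chosen after their values were seen. Replicate numbers did not pair the samples: over 84 pairs of same-numbered libraries the correlation of deviations lay between -0.06 and 0.06. The alternatives were library totals, upper-quartile factors, no low-count filter, a replicate block, halved counts, only the compared groups, DESeq2 1.42.0 and leaving out each library. The NRF1 letters were shortened by 1 base after a first search with the longer form. Promoters are from RefSeq, and lengths of principal transcripts (APPRIS) and exon overlaps are from the GENCODE mouse annotation of GRCm38. No promoter window was used here for Mrpl4, Mrpl13, Mrpl15, Mrpl19, Mrpl38, Mrps28, Mrps34 and Mrps35.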

Additional observations from a re-analysis of the deposited data

Results flagged for a closer look

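In these members the culture difference (ULA minus adherent) differed between the lines in the interaction term of edgeR's quasi-likelihood test (Benjamini-Hochberg, over all genes). Values are log2 differences, Ifngr1-KO minus sgNTC. With PBS they were -0.39 for Mrps10, -0.35 for Mrpl1, -0.28 for Mrpl38, -0.26 for Mrps17 and 0.35 for Mrps27. For Mrps10, Mrpl38 and Mrps17 the fall in ULA culture was deeper in Ifngr1-KO: Mrpl38 went from 77.9 ± 3.42 to 56.8 ± 2.36 CPM there and from 58.5 ± 3.62 to 51.6 ± 1.15 CPM in sgNTC, and Mrps17 from 64.6 ± 5.65 to 44.9 ± 0.056 CPM and from 53.5 ± 2.42 to 44.6 ± 0.75 CPM (SD, n = 3 each).

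With IFN-gamma the values were -0.42 for Mrpl1, -0.41 for Mrps18c, 0.30 for Mrps30, 0.30 for Mrpl50, 0.33 for Mrpl16, 0.36 for Mrpl18, 0.38 for Mrps33, 0.45 for Mrpl45, 0.45 for Mrpl51, 0.45 for Mrps27 and 0.52 for Mrpl12. Mrpl12 went from 31.5 ± 1.49 to 23.8 ± 1.89 CPM in sgNTC and from 38.2 ± 1.42 to 41.1 ± 4.88 CPM in Ifngr1-KO. Mrpl18 went from 23.6 ± 2.26 to 25.8 ± 0.55 CPM in sgNTC and from 26.6 ± 2.85 to 37.2 ± 2.37 CPM in Ifngr1-KO. Mrpl50 went from 52.8 ± 3.08 to 37.1 ± 2.08 CPM in sgNTC and from 47.2 ± 2.23 to 40.9 ± 0.34 CPM in Ifngr1-KO. Mrpl1 and Mrps27 were called with both PBS and IFN-gamma, in the same direction each time. The call of Mrps18c ended in 10 of 20 alternatives, and its value was -0.20 without replicate 2 of Ifngr1-KO ULA IFN-gamma. The calls of Mrpl12, Mrps27 and Mrps33 with IFN-gamma ended when library totals were the scale, at 0.40, 0.33 and 0.26. Over all 20 alternatives the call of Mrpl12 ended in 4 and that of Mrps33 in 5.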

How the results depend on the processing

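The number of members called in adherent culture between the lines with PBS fell from 50 to 30 without replicate 3 of Ifngr1-KO adherent PBS, and was 30 without both libraries that stood apart, an alternative chosen after seeing the data. Called interactions with PBS went from 5 to 8 with library totals (0 higher, 8 lower) and to 8 without both those libraries, and those with IFN-gamma from 11 to 17 when only the compared groups were fitted. Leaving out each library in turn gave 34 to 43 called members for culture in sgNTC PBS, 41 to 45 in sgNTC IFN-gamma, 42 to 47 in Ifngr1-KO PBS and 39 to 46 in Ifngr1-KO IFN-gamma. It gave 30 to 54, 20 to 30, 35 to 43 and 42 to 52 for the line comparisons (adherent PBS, adherent IFN-gamma, ULA PBS, ULA IFN-gamma). For the interactions it gave 2 to 7 with PBS and 7 to 16 with IFN-gamma, and for IFN-gamma in sgNTC ULA culture 1 throughout. The lowest interaction counts came without replicate 1 of sgNTC adherent PBS or replicate 3 of Ifngr1-KO ULA PBS (2 each), without replicate 2 of Ifngr1-KO adherent PBS or any 1 sgNTC ULA PBS library (3 each), and without replicate 2 of sgNTC adherent IFN-gamma (7). The cause was not tested. With the replicate block the culture counts were 42, 46, 50 and 48, the line counts 50, 32, 42 and 48, the IFN-gamma counts 0, 1, 0 and 0, and the interaction counts 5, 12 and 0, so it moved no count by over 1.5 times. With upper-quartile factors culture gave 29 lower and 9 higher in sgNTC PBS and 36 and 10 with IFN-gamma, and the interactions 7 lower and 0 higher with PBS and 5 and 4 with IFN-gamma. With library totals culture in sgNTC IFN-gamma gave 33 lower and 10 higher, with a median of -0.15 over members and 0.16 over all genes. Of 49 results on single named members, 33 stayed on their side of the threshold under every alternative run, and no sign turned. Members had at least 176 counts in each library, with a median SE of 0.09 on the log2 scale in the culture comparison in sgNTC PBS.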
